A study of Mus musculus with 6 samples.

Results

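The genes examined here are 10 genes of MHC class I antigen presentation, chosen by gene symbol (H2-K1, H2-D1, B2m, H2-T23, H2-M3, Tap1, Tap2, Tapbp, Nlrc5 and Psmb8) out of 23407 genes in the deposited table. All 10 were found there, and all 10 passed the filter on low values. RNA was measured by bulk sequencing of poly(A) RNA in 6 libraries of mouse dermal fibroblasts, 3 labelled TSP2KO and 3 labelled wild type (WT). TSP2KO stands for the loss of thrombospondin-2, a secreted protein of the extracellular matrix encoded by Thbs2. Both groups were primary cells from the back skin of mice aged 12 weeks, freed from the dermis with collagenase, grown in serum for 3 to 5 days and harvested at passage 1, with no treatment given in the labels. The labels give neither the knockout construct nor the strain, and they do not state that each library is a mouse of its own. The p-values therefore rest on the variation among these 6 libraries, some of which may be technical.

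MHC class I molecules sit on nearly all nucleated cells and show short peptides from the cell's own proteins to cytotoxic T cells and natural killer cells. Proteins are cut by the proteasome, the peptides are pumped into the endoplasmic reticulum by the TAP transporter, and they are loaded there onto a heavy chain paired with beta-2-microglobulin. Interferons raise many of these genes together, partly through NLRC5, a transactivator that acts on a conserved block of class I promoters known as the SXY module. Fibroblasts express the pathway at a low to moderate level at rest, and macrophages are rich in it.

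All 10 genes had a lower mean log2 value in TSP2KO than in WT (median log2 difference -1.09), and none of them passed the limma test across all genes at a Benjamini-Hochberg adjusted p under 0.05. The differences lay between -1.44 for Psmb8, a proteasome subunit induced by interferon, and -0.31 for Tap2, a chain of the peptide transporter. The classical heavy chains H2-K1 and H2-D1, their partner B2m and the loading factor Tapbp were each at least 2.02-fold lower on the scale log2(value + 1). The 2 transporter genes, Tap1 and Tap2, differed least. Over all 14707 genes tested the median log2 difference was -0.01, with 51.5% of genes lower.

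Where the promoters of these genes were read, 3 of the 4 heavy chain genes and B2m held the same spaced pair of short elements. They are shown because NLRC5 and the factors it works with are known to act there. The letters TGACG (the core of the X2 box, a site for CREB and ATF factors) and ATTGG (the Y box, a site for NF-Y) stood exactly 20 bases apart, in this order and on the strand of the gene, in H2-K1, H2-D1, H2-M3 and B2m. The stretches of 30 bases below run 5′ to 3′ on the strand of the gene, with the X2 core and the Y box in capitals, from RefSeq on GRCm38.p6. They lie at chr17:34000359-34000388 (minus strand), chr17:35262993-35263022 (plus strand), chr17:37270188-37270217 (plus strand) and chr2:122147609-122147638 (plus strand).
H2-K1: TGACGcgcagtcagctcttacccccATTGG
H2-D1: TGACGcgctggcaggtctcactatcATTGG
H2-M3: TGACGcttctccaattcccattctaATTGG
B2m: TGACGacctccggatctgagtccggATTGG

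Within the spacer, H2-K1 and H2-D1 had the same base at 13 of 20 positions, while H2-K1 and B2m had the same base at 3 of 20. The spaced pair, searched on both strands, was found in 31 of 32851 RefSeq promoter windows of 300 bases (0.0944%), which belonged to 27 of 27025 genes. Among the 10 genes, 8 had such a window and 4 of these held the pair. None of the 13 other class I heavy chain genes of the H2 region with a window held it. The spacing was noticed after the sequences had been read, so the count describes these genes and is no test.

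The full windows of 300 bases around the RefSeq start are given for the 4 genes with the pair and for H2-T23, a nonclassical heavy chain without it. Where a gene had more than 1 window, as H2-K1 did, the first was used. The windows lie at chr17:34000298-34000597 (minus strand), chr17:35262844-35263143 (plus strand), chr17:37269984-37270283 (plus strand), chr2:122147437-122147736 (plus strand) and chr17:36032652-36032951 (minus strand). Capitals mark every match, on either strand, to the X2 core TGACG, the Y box ATTGG and the core of the interferon-stimulated element TTTCNNTT.
H2-K1: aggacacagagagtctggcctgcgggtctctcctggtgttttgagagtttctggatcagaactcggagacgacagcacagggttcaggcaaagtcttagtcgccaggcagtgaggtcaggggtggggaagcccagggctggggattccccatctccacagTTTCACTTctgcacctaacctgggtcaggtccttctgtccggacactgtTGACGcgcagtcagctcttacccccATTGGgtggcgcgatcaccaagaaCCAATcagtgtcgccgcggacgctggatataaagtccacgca
H2-D1: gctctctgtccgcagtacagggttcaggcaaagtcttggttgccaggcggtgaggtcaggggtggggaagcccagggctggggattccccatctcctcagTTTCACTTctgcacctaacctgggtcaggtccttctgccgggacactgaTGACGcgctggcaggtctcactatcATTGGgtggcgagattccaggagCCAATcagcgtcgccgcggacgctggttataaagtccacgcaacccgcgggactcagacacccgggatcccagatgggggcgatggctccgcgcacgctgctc
H2-M3: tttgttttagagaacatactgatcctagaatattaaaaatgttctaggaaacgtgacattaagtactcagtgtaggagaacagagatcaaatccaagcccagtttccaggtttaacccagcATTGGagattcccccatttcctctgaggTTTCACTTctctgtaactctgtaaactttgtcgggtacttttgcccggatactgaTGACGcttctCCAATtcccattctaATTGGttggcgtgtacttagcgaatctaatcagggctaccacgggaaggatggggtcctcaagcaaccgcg
B2m: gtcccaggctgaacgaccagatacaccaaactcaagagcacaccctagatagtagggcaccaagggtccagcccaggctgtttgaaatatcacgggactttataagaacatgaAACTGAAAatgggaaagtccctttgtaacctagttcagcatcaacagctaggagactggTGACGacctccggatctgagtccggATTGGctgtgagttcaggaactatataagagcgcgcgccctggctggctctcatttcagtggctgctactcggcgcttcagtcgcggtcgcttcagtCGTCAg
H2-T23: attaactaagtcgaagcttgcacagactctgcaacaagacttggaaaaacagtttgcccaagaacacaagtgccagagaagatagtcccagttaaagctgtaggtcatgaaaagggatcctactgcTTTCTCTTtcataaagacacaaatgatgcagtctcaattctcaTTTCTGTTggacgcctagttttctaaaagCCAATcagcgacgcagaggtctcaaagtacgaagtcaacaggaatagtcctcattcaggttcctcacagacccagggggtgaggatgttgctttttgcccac

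In these windows an interferon-stimulated element core lay upstream of the pair in all 4 genes that held it. H2-T23 held 2 such cores and a Y box on the other strand but no X2 core. The interferon-stimulated element core was found in 23.9% of all windows, the X2 core in 20.8% and the Y box in 37.4%. A gamma-activated site, TTCNNNGAA, was found in H2-M3 and Psmb8, and in 8.30% of all windows. In H2-M3 a further Y box on the other strand overlapped the spacer of the pair. A match of letters is not a bound site.

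**Figure D1:**
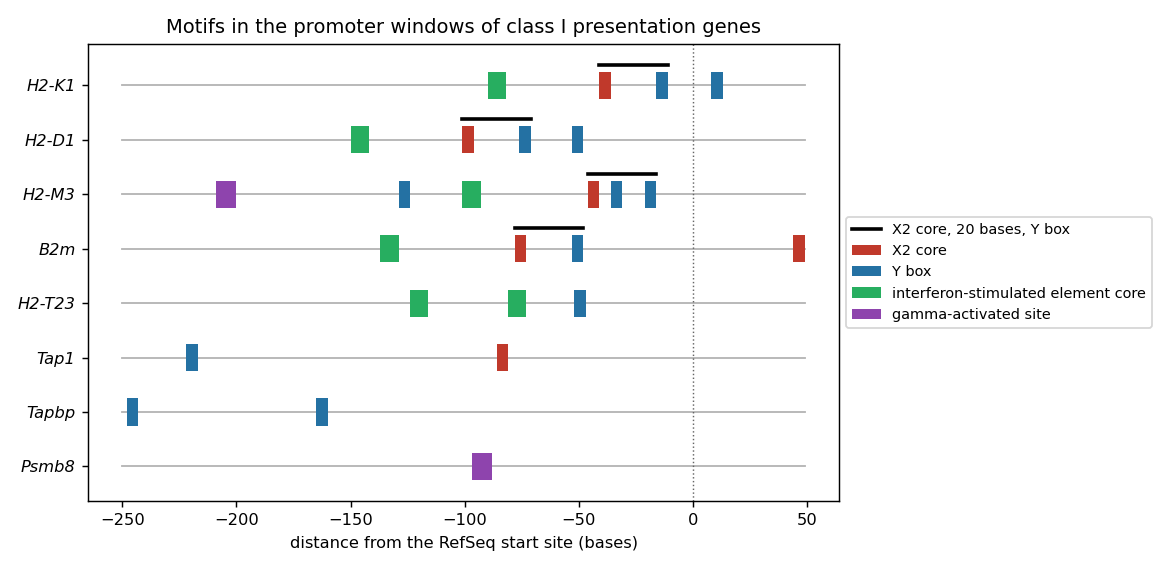
Motif matches in the promoter windows of 8 genes. The horizontal axis is the distance in bases from the RefSeq start site, each row is a gene, coloured blocks are matches on either strand, and black bars span the X2 core and the Y box 20 bases apart. Bars stand over H2-K1, H2-D1, H2-M3 and B2m, and none over the other 4 genes.

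The targeted gene did not follow the labels in every library. Thbs2 (chromosome 17, 14665500 to 14694235, minus strand, mm10) had 5177, 6635 and 4891 normalised reads in TSP2KO 1, TSP2KO 2 and TSP2KO 3, against 122061, 116720.0 and 8841 in WT 1, WT 2 and the library labelled WT 3. The library labelled WT 3 thus lay near the TSP2KO level. Values with it left out are given below for each of the 10 genes and for some of the other genes and lists. Estimated depth was 14776502 to 20521968 reads in TSP2KO and 18266754 to 34599855 reads in WT. Of the fibroblast markers, Col1a1 and Vim were abundant in all 6 libraries, at 8824 normalised reads or more. Lum, a collagen-binding proteoglycan of the matrix, was as low as 86.4 in TSP2KO 3. Keratinocyte markers differed widely between libraries, with a summed level of 488 to 10469 normalised reads in TSP2KO and 497 to 31653 in WT, where the library labelled WT 3 was the highest.

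H2-K1 and H2-D1 encode the classical heavy chains, which present peptide to CD8+ T cells. H2-K1 (chromosome 17, 33996017 to 34000347, minus strand) had 2437, 4909 and 1125 normalised reads in TSP2KO 1, 2 and 3, against 8889, 7351 and 4004 in WT 1, WT 2 and the library labelled WT 3. H2-D1 (chromosome 17, 35262730 to 35267499, plus strand) had 5760.1, 12402 and 3199 in TSP2KO, against 27501, 19049 and 6546 in WT. For both genes TSP2KO 2 lay above the library labelled WT 3, so the groups overlapped, while all TSP2KO libraries lay below WT 1 and WT 2. The log2 difference was -1.43 for H2-K1 (SE 0.54, 2.69-fold lower, limma adjusted p = 0.446) and -1.30 for H2-D1 (SE 0.64, 2.47-fold lower, adjusted p = 0.596). With the library labelled WT 3 left out they were -1.76 (adjusted p = 0.107) and -1.90 (adjusted p = 0.0823).

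B2m (chromosome 2, 122147686 to 122153083, plus strand) encodes beta-2-microglobulin, the light chain that every classical class I molecule needs to reach the cell surface. It had 11263, 13039 and 9597 normalised reads in TSP2KO 1, 2 and 3, against 24739.7, 34482 and 15379 in WT 1, WT 2 and the library labelled WT 3. The groups did not overlap, and the library labelled WT 3 lay closest to TSP2KO. The mean was 11299.8 ± 1721 in TSP2KO and 24867 ± 9552 in WT (SD, n = 3 each). The log2 difference was -1.07 (SE 0.32, 2.1-fold lower), which did not pass (limma adjusted p = 0.314). Leaving out the library labelled WT 3 gave -1.38 (SE 0.24, adjusted p = 0.0292). B2m was then the only member past the threshold, in a fit that called 404 genes lower, 2.75% of those tested, and 2.43% higher.

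H2-T23 and H2-M3 encode nonclassical heavy chains, which vary little between mice. H2-T23 (chromosome 17, 36029773 to 36032855, minus strand) encodes Qa-1, a ligand of inhibitory receptors on natural killer cells. It had 424, 791 and 351 normalised reads in TSP2KO, against 1235, 1471 and 739 in WT. H2-M3 (chromosome 17, 37270220 to 37274484, plus strand), which presents N-formylated peptides, had 147, 131 and 88.1 in TSP2KO, against 249, 325 and 210.4 in WT. TSP2KO 2 overlapped the library labelled WT 3 for H2-T23, and no library overlapped for H2-M3. The log2 differences were -1.17 (SE 0.37, limma adjusted p = 0.356) and -1.10 (SE 0.28, adjusted p = 0.248). Leaving out the library labelled WT 3 gave -1.46 (adjusted p = 0.0593) for H2-T23 and -1.24 (adjusted p = 0.0565) for H2-M3. With all libraries, the value for H2-M3 was the lowest adjusted p of the 10 genes, at rank 306 of all genes tested.

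Psmb8 (chromosome 17, 34197721 to 34201454, plus strand) encodes a catalytic subunit of the immunoproteasome, the form of the proteasome assembled under interferon. It had 253, 505 and 150.5 normalised reads in TSP2KO, against 731, 859 and 613 in WT, with no overlap. The log2 difference was -1.44 (SE 0.42, 2.71-fold lower, limma adjusted p = 0.31), the lowest of the 10 genes. With the library labelled WT 3 left out, Psmb8 stood at -1.56 (adjusted p = 0.0973).

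Tap1 (chromosome 17, 34187553 to 34197225, plus strand) and Tap2 (chromosome 17, 34203527 to 34216321, plus strand) encode both chains of the peptide transporter of the endoplasmic reticulum. Tap1 had 205, 489 and 198 normalised reads in TSP2KO, against 417, 405 and 249 in WT. TSP2KO 2 was the highest of all 6 libraries for Tap1, and the 2 other TSP2KO libraries were the lowest. Tap2 had 947, 1166 and 883 in TSP2KO, against 1286, 1379.5 and 1039 in WT. The log2 differences were -0.36 (SE 0.40, limma adjusted p = 0.823) for Tap1 and -0.31 (SE 0.19, adjusted p = 0.693) for Tap2, and the groups overlapped for both genes. The fit that leaves out the library labelled WT 3 gave -0.60 (adjusted p = 0.407) and -0.43 (adjusted p = 0.216).

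Tapbp (chromosome 17, 33915899 to 33929292, plus strand) encodes tapasin, which bridges the transporter and the empty heavy chain. It had 1706, 3002 and 1732 normalised reads in TSP2KO, against 4996, 4457 and 3265 in WT, with no overlap (log2 difference -1.01, SE 0.28, limma adjusted p = 0.284). Leaving out the library labelled WT 3 gave -1.19 (adjusted p = 0.0577) for Tapbp. Nlrc5 (chromosome 8, 94434356 to 94527272, plus strand), the class I transactivator, had 404, 402 and 189.6 in TSP2KO, against 509, 703 and 649 in WT. The groups did not overlap, and Nlrc5 was the only 1 of the 10 genes for which WT 1, rather than the library labelled WT 3, was the lowest WT library. Its log2 difference was -0.97 (SE 0.33, adjusted p = 0.384). Leaving out the library labelled WT 3 gave -0.93 (adjusted p = 0.18).

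**Figure D2:**
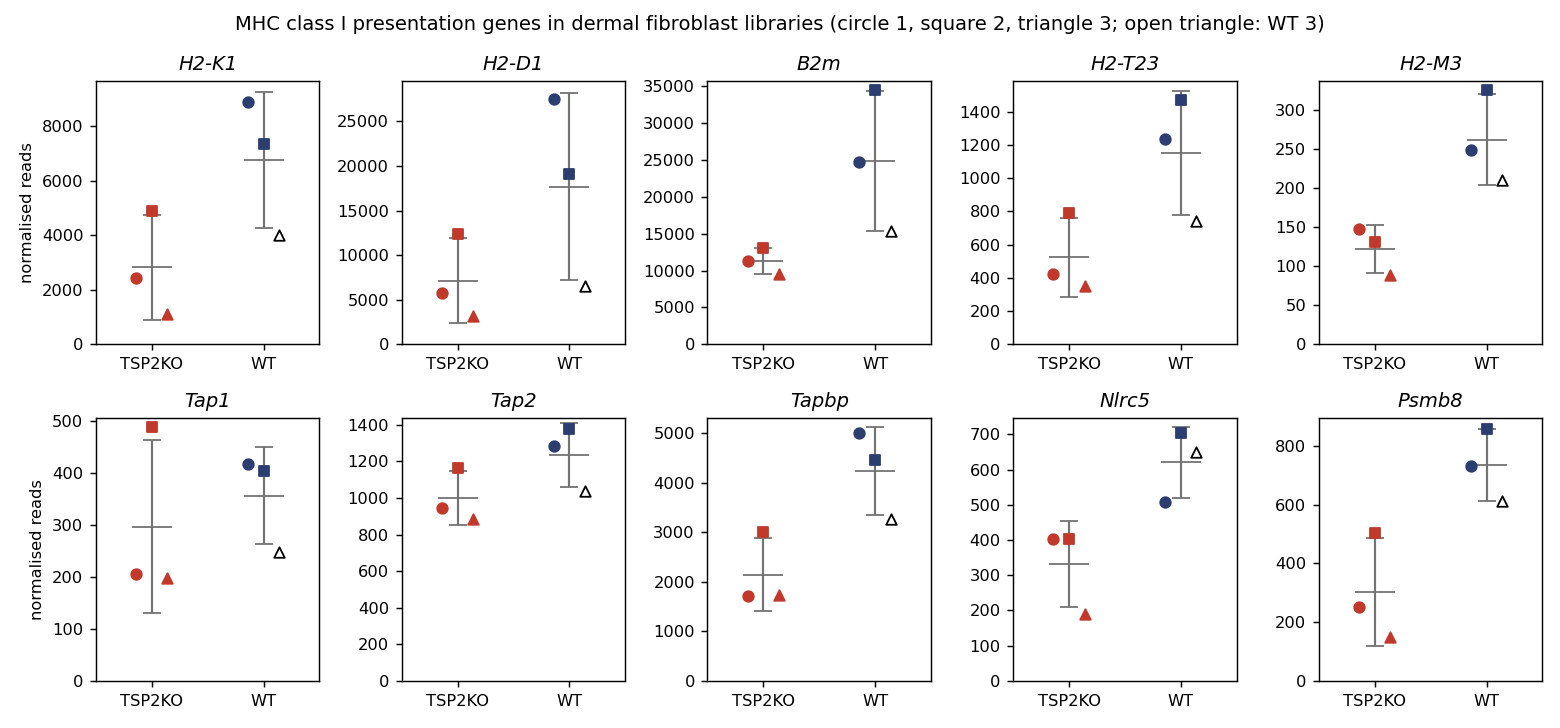
Normalised reads of the 10 genes in each library. Each panel is a gene with its own axis from 0, points are libraries (circle 1, square 2, triangle 3, with an open triangle for the library labelled WT 3), and grey bars show the mean ± SD of 3 libraries. TSP2KO 3 was the lowest library for 9 of the 10 genes, and WT 1 or WT 2 the highest for 9.

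Read together, 5 of the 10 genes (B2m, H2-M3, Tapbp, Nlrc5 and Psmb8) had every TSP2KO library below every WT library. Over all genes tested, 8.27% did, and 5.90% had every TSP2KO library above every WT library. At an unadjusted p under 0.05 by limma, 7 of the 10 were lower, against 6.09% of all genes lower and 3.66% higher. A log2 difference of -1 or less was seen in 7 of the 10 and in 6.15% of all genes. At the threshold itself 0 of the 10 passed, against 0.0612% of all genes lower. With the library labelled WT 3 left out, 9 of the 10 had every TSP2KO library below both WT libraries, against 22.3% of all genes in that direction. The 10 genes were picked with earlier results of these data known, so these shares describe them and are no test.

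The 10 genes varied together across the 6 libraries. The Pearson r between pairs of them had a median of 0.88 over 45 pairs, from 0.49 for Tap1 and Nlrc5 to 0.98 for H2-T23 and Tap2. These are descriptions over 6 libraries of 2 genotypes. Relative to the mean of the 3 WT libraries, the mean log2 value of the 10 genes was -1.06, -0.42 and -1.57 in TSP2KO 1, 2 and 3, and 0.19, 0.28 and -0.46 in WT 1, WT 2 and the library labelled WT 3. TSP2KO 2 and the library labelled WT 3 thus had nearly the same mean. The members spread most in TSP2KO 3, from -2.51 for H2-K1 to -0.47 for Tap2.

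Per kilobase of exon, B2m was the most abundant, at 13139 ± 2002 normalised reads per kb in TSP2KO and 28915 ± 11107 in WT (SD, n = 3 each). H2-D1 followed, at 2761 ± 1842 and 6863 ± 4088, and H2-K1, at 961 ± 654 and 2297 ± 850.3. Tap1 and Nlrc5 were at the low end, Tap1 at 54.2 ± 30.3 in TSP2KO and 65.2 ± 17.1 in WT, and Nlrc5 at 39.1 ± 14.5 in TSP2KO and 73.0 ± 11.8 in WT. B2m was above H2-D1, and H2-D1 above H2-K1, in 6 of 6 libraries. H2-K1 lay above Tapbp in 5 of 6. Tap2 and H2-T23 (4 of 6 libraries in the order of their means), Psmb8 and H2-M3 (4 of 6) and Tap1 and Nlrc5 (3 of 6) were not ordered beyond their spread. Lengths are the exons of all annotated transcripts joined, which lowers the level of genes with long minor transcripts.

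The induced proteasome subunits were next set against the constitutive subunits whose place they take, within each library. Psmb8 stood at 11.3%, 23.6% and 6.46% of Psmb5 in TSP2KO 1, 2 and 3, against 42.7%, 45.7% and 24.8% in WT 1, WT 2 and the library labelled WT 3. Psmb10 stood at 17.3%, 23.3% and 16.1% of Psmb7 in TSP2KO, against 30.1%, 38.3% and 24% in WT. For both pairs the groups did not overlap. The log2 ratio of Psmb8 to Psmb5 was -3.05 ± 0.93 in TSP2KO and -1.45 ± 0.48 in WT (SD, n = 3 each), a difference of -1.60. For Psmb10 and Psmb7 the difference was -0.69. In both cases the exact permutation test gave p = 0.1 (two-sided, n = 3 each), the smallest p that 3 against 3 libraries allow, or 0.15 adjusted over 3 pairs. Psmb9 stood at 2.12%, 3.99% and 1.39% of Psmb6 in TSP2KO, against 4.62%, 6.08% and 3.96% in WT. Here TSP2KO 2 just exceeded the library labelled WT 3 (difference -1.06, exact permutation p = 0.2, two-sided, n = 3 each, adjusted p = 0.2). None of these tests could pass, and a ratio within a library shows unequal change of the 2 genes, not which of them changed. Taken alone, Psmb10 overlapped between the groups, with a log2 difference of -0.45 (SE 0.22, limma adjusted p = 0.596). Psmb7 had 0.24 (SE 0.25, limma adjusted p = 0.809).

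**Figure D3:**
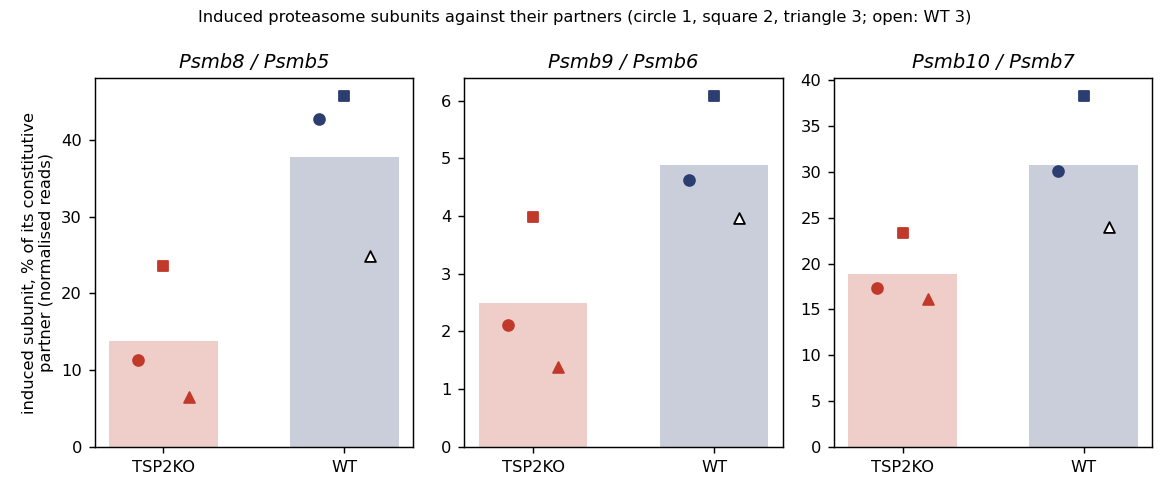
Induced proteasome subunits as a percentage of their constitutive partners, in normalised reads. Each panel is a pair, bars are the mean of 3 libraries from 0, and points are libraries (circle 1, square 2, triangle 3, open for the library labelled WT 3). For Psmb8 over Psmb5 the TSP2KO libraries reach up to 23.6% and the WT libraries start at 24.8%.

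The other steps of the pathway had smaller median differences. Of 5 genes of the immunoproteasome and its PA28 activator, 4 were lower and 0 passed (1 at an unadjusted p under 0.05 by limma), with a median log2 difference of -0.21. Psmb9, encoded beside Tap1, had -0.97 (limma adjusted p = 0.483), and Psme2, a PA28 subunit, had 0.03 (adjusted p = 0.981). The 3 constitutive catalytic subunits had a median of 0.16, and 11 other subunits of the proteasome core had 0.04, with 0 past the threshold and 0 at an unadjusted p under 0.05 in either list by limma. Of 7 genes of loading and trimming in the endoplasmic reticulum, 5 were lower, 2 higher and 0 passed (1 at an unadjusted p under 0.05), with a median of -0.07. Erap1, the aminopeptidase that trims peptides to fit, was the only 1 of them without overlap, at 672, 863 and 847 normalised reads in TSP2KO against 950.2, 1414 and 1220.4 in WT (log2 difference -0.58, SE 0.21, adjusted p = 0.427). The chaperone Calr had 0.31 (adjusted p = 0.693). Each of these medians rests on 3 to 11 genes, beside -0.01 over all genes.

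Other class I heavy chains are encoded in the H2 region too. Of 16 such genes in the table, 9 passed the filter on low values, and 8 of these were lower. By limma 0 passed and 4 were lower at an unadjusted p under 0.05, against 6.09% of all genes. The median log2 difference was -1.32. The median was -0.97 with a pseudocount of 10, -0.71 without TSP2KO 3 and -1.55 with the library labelled WT 3 left out. H2-Q10, at a mean of 5.84 in TSP2KO and 22.9 in WT, passed the filter only through WT, so the 9 are not the whole list. H2-Q10 is among the 8 and the 4, so these counts and the median are descriptions and no test. H2-Q6 had 155, 327 and 37.0 normalised reads in TSP2KO, against 918, 708 and 464 in WT (log2 difference -2.43, SE 0.73, limma adjusted p = 0.319). H2-Q7, which encodes Qa-2, had 408, 633 and 43.1 in TSP2KO, against 1331, 1427 and 893 in WT (-2.41, SE 0.91, adjusted p = 0.444). Neither gene overlapped between groups, and TSP2KO 3 was far below the rest for both. H2-M9 had the only positive difference of the 9, with 27.6, 76.6 and 5.34 in TSP2KO against 1.55, 0.785 and 41.1 in WT (2.07, SE 1.39, adjusted p = 0.708). Outside the H2 region, 4 class I-like genes were tested. All 4 were lower and 0 passed (1 at an unadjusted p under 0.05 by limma), with a median of -0.43 and a range of -1.36 to -0.13. The lowest was the iron regulator Hfe, with 729, 716 and 419 in TSP2KO against 1699.6, 2217 and 984 in WT (-1.36, SE 0.35, adjusted p = 0.258). Leaving out the library labelled WT 3, only Hfe of the 4 passed (-1.69, adjusted p = 0.0277), in a fit that called 2.75% of all genes lower.

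**Figure D4:**
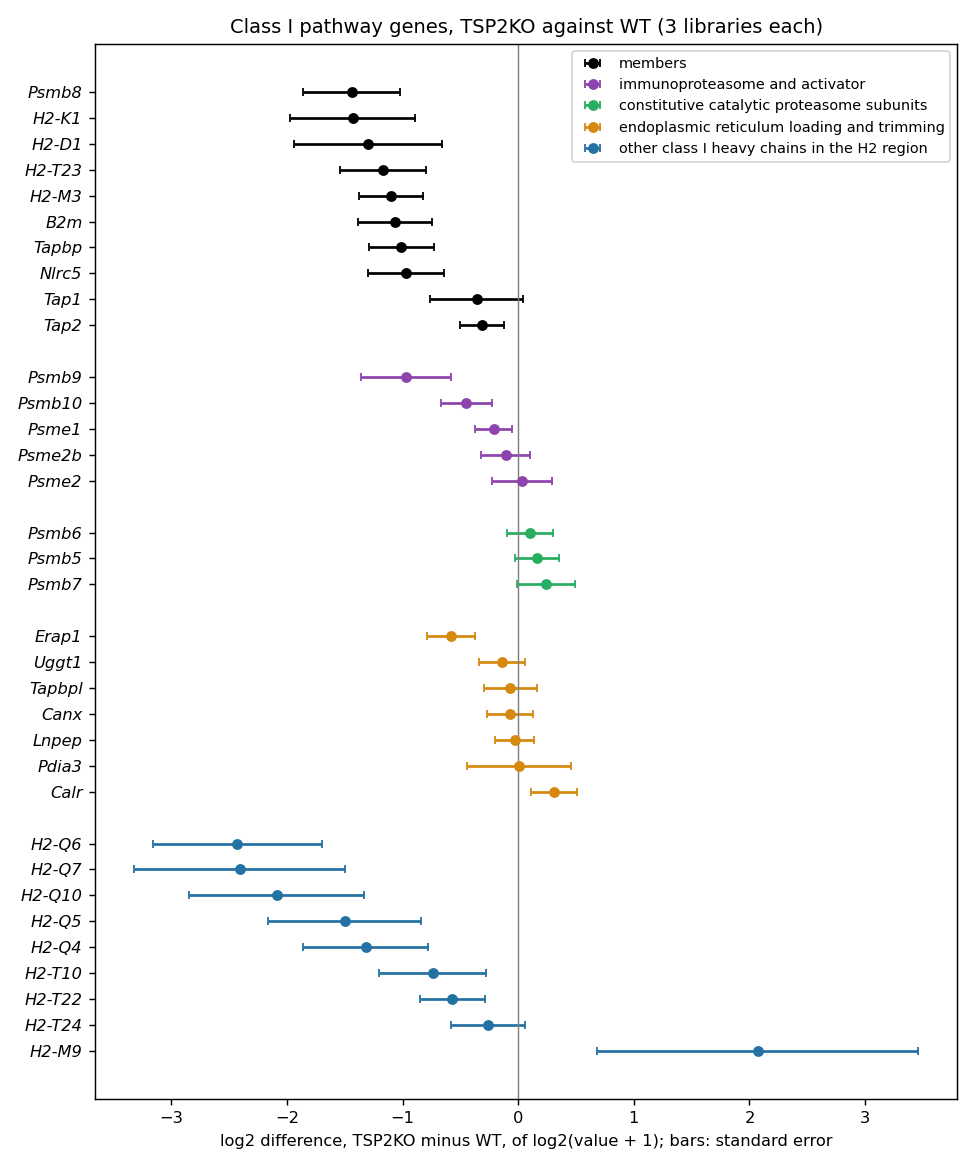
Log2 differences, TSP2KO minus WT, of the 10 genes (members) and 4 other lists of the class I pathway. Points are limma estimates on log2(value + 1), bars are standard errors, and the vertical line marks 0. The 10 genes lie between -1.44 and -0.31, the constitutive proteasome subunits between 0.10 and 0.24, and the heavy chains reach -2.43.

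Heavy chain genes are hard to count apart. Of all stretches of 50 bases in the annotated transcripts, 12.8% for H2-D1, 13.6% for H2-T23 and 9.63% for H2-K1 also occurred in transcripts of other genes, most often H2-Q1, H2-T-ps and H2-Q10. For B2m and Nlrc5 the share was 0%, and for H2-M3 it was 0.576%. The deposited values of H2-M3 and Nlrc5 were whole multiples of the worth of a read in 6 of 6 libraries, within 0.02 of a read plus rounding, while those of H2-K1 were whole in 0 of 6. Shared stretches and whole values did not go together throughout: Tapbp shared 2.87% and was whole in 0 of 6 libraries, and Tap2 shared 0.655% and was whole in 1 of 6. The values of H2-K1, H2-D1 and H2-T23 are uncertain by the reads they may share, and those of the H2-Q genes likewise. Members sharing at most 0.655% of their stretches had log2 differences of -1.44 (Psmb8), -1.10 (H2-M3), -1.07 (B2m), -0.97 (Nlrc5), -0.36 (Tap1) and -0.31 (Tap2). The part of shared reads in the heavy chain differences was not tested.

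Regulators of the pathway were mixed. Of 26 tested regulators, 20 were lower and 6 higher, with a median log2 difference of -0.24. By limma 0 passed and 5 were lower at an unadjusted p under 0.05, against 6.09% of all genes. Irf8 (mean 7.79 in TSP2KO and 16.3 in WT) and Rfxap (8.82 in TSP2KO and 12.4 in WT) passed the filter only through WT and so had to be lower. Neither is among the 5, but the count of 20 and the median are descriptions and no test. Irf7 and Irf9, factors of the interferon response, had -2.27 (SE 0.81, limma adjusted p = 0.412) and -1.58 (SE 0.53, adjusted p = 0.384). Ifngr1, a chain of the interferon-gamma receptor, had -0.58 (SE 0.17, adjusted p = 0.318) with no overlap between groups. Irf1, which also binds class I promoters, had 0.07 (adjusted p = 0.943). RFX5, RFXAP and RFXANK, which bind the X box with NLRC5, had log2 differences at their genes Rfx5, Rfxap and Rfxank of 0.04, -0.47 and -0.20, with adjusted p of at least 0.787.

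Interferon-induced genes had the same order of libraries within each group, by their mean, as the class I genes. All 19 tested had negative differences, with a median log2 difference of -2.33. By limma 0 passed and 17 had an unadjusted p under 0.05, against 6.09% of all genes lower. The groups did not overlap for 12, against 8.27% of all genes in that direction. Of the 19, Mx2 and Gbp4 passed the filter only through WT, at means of 3.97 and 8.7 in TSP2KO and 30.9 and 38.8 in WT. Both are among the 17 and the 12, so these counts are descriptions and no test. With the library labelled WT 3 left out, 7 passed, against 2.75% of all genes lower. Relative to the WT mean, their mean log2 value was -2.53, -1.27 and -3.09 in TSP2KO 1, 2 and 3, and 0.01, 0.69 and -0.70 in WT 1, WT 2 and the library labelled WT 3. TSP2KO 2 was thus the highest TSP2KO library and the library labelled WT 3 the lowest WT library in this list, as for the 10 genes. Iigp1, an interferon-inducible GTPase, had the smallest p of the list, with 20.7, 77.8 and 8.01 normalised reads in TSP2KO against 292, 493 and 246 in WT (log2 difference -3.73, SE 0.74, limma adjusted p = 0.162). Over the 6 libraries the mean of the list followed that of the 10 genes at r = 0.98. The part of an interferon signal in the class I values was not tested.

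Macrophage markers had lower mean values in TSP2KO as well. All 15 tested had negative differences, with a median log2 difference of -2.57. Some of the 15, such as Ptprc (mean 2.43 in TSP2KO and 40.1 in WT) and Tyrobp (4.48 in TSP2KO and 29.0 in WT), passed the filter only through WT and so had to be lower, and the count and median support nothing. C1qb, a chain of complement C1q, passed, with 12.1, 8.39 and 16 normalised reads in TSP2KO against 177, 161 and 128 in WT (-3.60, SE 0.33, limma adjusted p = 0.0456). No gene passed in 9 of 14 other fits, so that call is lost there. With the library labelled WT 3 left out, 12 of the 15 passed, against 2.75% of all genes lower, a count with the same limit. Their summed level over 17 genes was 740.3 to 907 normalised reads in TSP2KO and 3358 to 6264 in WT. Fcgr1, too low to be tested, was at 0 in all 3 TSP2KO libraries and at only 6.18, 7.06 and 1.28 in WT. Relative to the WT mean, the mean log2 value of the tested macrophage markers was -2.55, -2.43 and -2.39 in TSP2KO and 0.10, -0.02 and -0.08 in WT. This mean followed that of the class I genes at r = 0.79. It rests on the same 15 genes and only describes them. Single markers spread more, such as Lyz2, which encodes lysozyme, with 398, 445 and 595 normalised reads in TSP2KO against 4557, 3688 and 1758 in WT. Fibroblast markers had a median of -0.73, with 8 of 10 lower and 0 past the threshold by limma (3 lower at an unadjusted p under 0.05), and -1.08 with the library labelled WT 3 left out. The 3 were Lum (-3.33), Dcn (-2.80) and Pdgfra (-1.46), while Col1a1 (0.08) and Vim (0.18) were the 2 with positive differences. The list's summed level was 165226 to 263155 in TSP2KO and 204045 to 390022 in WT, and their mean followed the class I genes at r = 0.93. In bulk RNA, fewer cells of a type and less RNA per cell cannot be told apart, and the part of either marker list in the class I differences was not tested. Of 5 tested Schwann cell markers 4 were lower, with a median of -0.98, and -1.33 with the library labelled WT 3 left out. By limma 0 of them passed and 2 were lower at an unadjusted p under 0.05, against 6.09% of all genes. Their mean followed the class I genes at r = 0.80. Keratinocyte, endothelial and melanocyte markers had medians of 0.44, -0.41 and -0.19, and followed the class I genes at r = -0.08, 0.19 and 0.05. The part of these lists was not tested either. T and NK cell markers were low, summed at 16.7 to 53.4 in TSP2KO and 4.32 to 18.6 in WT over 3 genes, as were markers of dendritic and Langerhans cells, at 9.79 to 32.2 and 19.2 to 75.1 over 7 genes.

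Of class II presentation, which displays proteins taken up from outside the cell, 6 of 10 genes were tested. Of these 3 were lower and 3 higher, with a median log2 difference of 0.00. The median was -0.41 with the library labelled WT 3 left out and -0.37 without TSP2KO 3. Cd74, the invariant chain, had 2.87, 3.92 and 5.34 normalised reads in TSP2KO against 79.3, 71.4 and 53.2 in WT. It passed (-3.78, SE 0.40, limma adjusted p = 0.0476), a call that is also lost in the 9 fits where no gene passed. At a mean of 4.04 in TSP2KO and 68.0 in WT, Cd74 passed the filter only through WT. It thus had to be lower, and its call supports nothing. Ctss, the protease that cleaves the invariant chain and which macrophages express strongly, had -2.74 (SE 0.34, adjusted p = 0.075). H2-Ab1, a class II chain, had 28.2, 66.6 and 53.4 in TSP2KO against 54.6, 33.3 and 30.2 in WT (0.28, adjusted p = 0.871). Ciita, the class II counterpart of Nlrc5, lay at or below 1.12 in every library and was not tested.

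**Figure D5:**
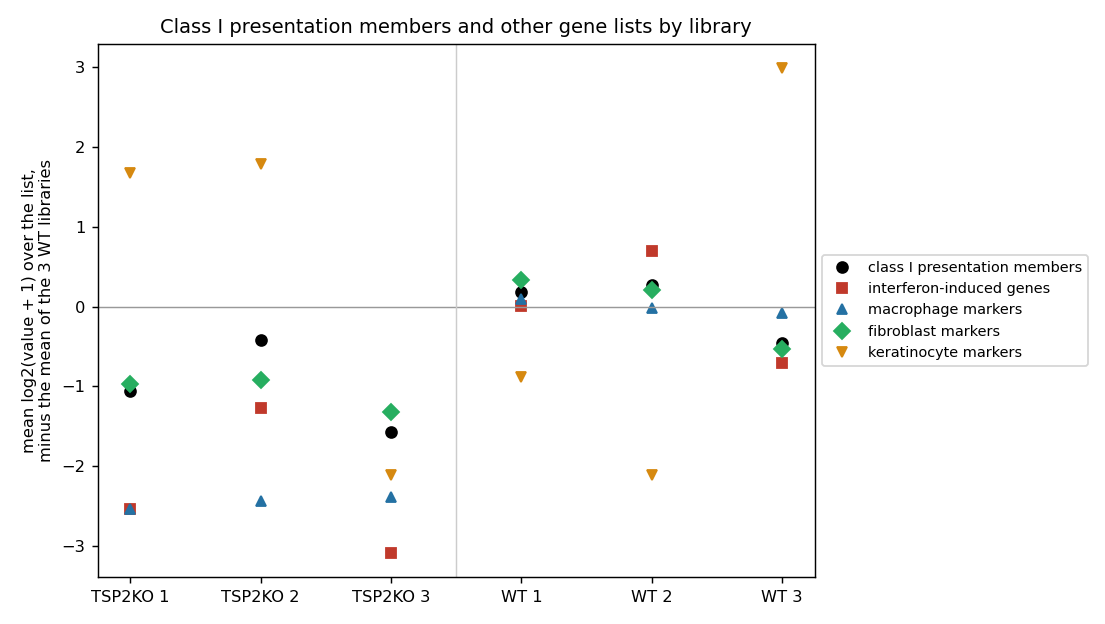
Mean log2(value + 1) of 5 gene lists in each library, less the mean of the 3 WT libraries. Each point is a list in a library, and the vertical line parts TSP2KO from WT. The class I genes lie at -1.06, -0.42 and -1.57 in TSP2KO, macrophage markers near -2.5 in all 3, and keratinocyte markers at up to 2.99 in the library labelled WT 3.

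Of the 10 genes, 8 lie on chromosome 17, between 19.2 and 22.6 Mb from Thbs2, the targeted gene on the same chromosome. The log2 differences of the 8 ran from -1.44 for Psmb8 to -0.31 for Tap2. B2m and Nlrc5 lie on chromosomes 2 and 8 and had -1.07 and -0.97. The part of position near Thbs2 in these differences was not tested.

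The 6 genes outside the lists whose level followed the mean of the 10 most closely over the 6 libraries, out of 9713 genes with a mean of at least 100, were Ifih1, Phf10, Pdxk, Zbp1, Mmp27 and Arhgap22, at Pearson r between 0.990 and 0.993. Ifih1 encodes the RNA sensor MDA5 and Zbp1 a sensor of Z-form nucleic acids, while Pdxk encodes pyridoxal kinase. Zbp1 had 28.7, 169 and 12.5 normalised reads in TSP2KO, against 522, 1088 and 139 in WT (log2 difference -3.40, limma adjusted p = 0.333). Ifih1 had 142, 255 and 95.3 in TSP2KO, against 385, 502 and 219 in WT (-1.20, adjusted p = 0.427). With 6 libraries and this many genes, values of r this high are a ranking only.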

How the data were processed

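The authors deposited normalised counts per gene, a signal that is not whole, for 6 libraries, 3 TSP2KO and 3 WT. The submitters' processing notes name mm10, STAR, DESeq2 and Partek but not what each did. The sources used here do not say how reads were counted, nor with which annotation and strand. Genotype and number tied each column to its sample, as the library suffixes differ from those in the labels. The worth of a read was taken as the commonest value above 0 of each library, and depth as the total over that value.

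Genes with a mean of at least 10 were tested as log2(value + 1), TSP2KO minus WT, with a mean-variance trend (limma 3.58.1, R 4.3.3), two-sided, and Benjamini-Hochberg adjustment over all 14707 genes, with a threshold of 0.05. Folds are on that log2 scale, which understates low genes. On simulated data the test recovered 11.6% of genes changed 2-fold and 51.2% of those changed 4-fold. It made 37 false calls over 5 simulations. Each gene was simulated independently with its own spread within groups, so shifts shared across a library were left out. The shares may therefore differ in the real libraries. Subunit ratios were compared by exact permutation tests. Promoters were taken from RefSeq on GRCm38.p6 and exon lengths from GENCODE M21, whose coordinates for the 10 genes were those of the table after 1 base was taken off the stop. Motifs were matched by letters.

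The 10 genes and the other lists were chosen with earlier results of these data known. The rule for names took the 10 genes, Thbs2, up to 6 tested genes of smallest p from each list and the 6 genes most alike. H2-M9, H2-Ab1, Calr, Psme2, Irf1, Irf8, Rfx5, Rfxap, Rfxank, Col1a1, Vim, Fcgr1 and Ciita were named after their values were seen where the rule did not reach them. A gene the rule reached is not reported here. Alternatives were pseudocounts of 0.1 and 10, no filter, a mean of at least 100, 2 rescalings (TMM, trimmed means of log ratios, and upper quartiles), no trend, a replicate block and each library left out.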

Additional observations from a re-analysis of the deposited data

How the results depend on the processing

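Each of the 10 genes kept a negative log2 difference in all 14 other fits. B2m alone crossed the threshold, in the fit without the library labelled WT 3, so that the count of the 10 genes past it lay between 0 and 1 with a library left out. The count of these genes without overlap, 5 with all libraries, was 9 without that library, a setting chosen after seeing the data. With a library left out, the median of the 10 genes lay between -1.31 and -0.88. H2-D1 was -1.90 without the library labelled WT 3 and -0.84 without TSP2KO 3, and Tap1 was -0.79 without TSP2KO 2 and -0.14 without TSP2KO 3. Without TSP2KO 3, H2-K1, at -1.43 with all libraries, was -0.89, and Nlrc5, at -0.97, was -0.61. The differences of the subunit ratios stayed negative throughout, from -2.08 to -1.15 for Psmb8 over Psmb5, from -1.46 to -0.71 for Psmb9 over Psmb6 and from -0.86 to -0.53 for Psmb10 over Psmb7.

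Over all genes, 9 passed. The count was 0 with a pseudocount of 0.1, with no filter, with a mean of at least 100 and with the replicate block, 14 with a pseudocount of 10 and 15 without the trend. With a library left out it lay between 0 and 761, the last without the library labelled WT 3 and 0 in the 5 other cases. The cause was not tested. Over all genes tested, the deviations of same-numbered libraries correlated at -0.422, -0.246 and -0.395, and no library correlated best with its own number. The mean of the 10 genes, though, was highest in library 2 and lowest in library 3 of both groups. The replicate block changed the SE of H2-K1 from 0.54 to 0.32 and that of Tap2 from 0.19 to 0.21. Whether the numbers pair the samples cannot be told from these values. With the replicate block 0 of the 10 genes and 0 of all genes passed.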
